A study of Mus musculus with 27 samples.

Results

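Fetal liver cells lacking both Rb1 and p107 were compared with wild-type cells as they came from the embryo, before any time in culture. The comparison uses 5 of the 27 arrays of the study: the 2 arrays labelled Rb1;p107 DKO at 0 h (DKO below) and the 3 arrays labelled wild type at 0 h (WT), chosen by these labels alone. The study cultured liver cells of mouse embryos at embryonic day 14.5 for 0, 24 or 48 h in a medium rich in fetal bovine serum, left them otherwise untreated, and hybridized their total RNA to Affymetrix Mouse Genome 430 2.0 arrays. Its other groups at 0 h, used here beside the double knockout, are 5 arrays labelled Rb1 knockout (Rb1KO) and 2 labelled p107 knockout (p107KO). Strain, the exons altered in either gene and the driver of any Cre transgene are not given in the sources used here. Nothing in the labels ties replicate arrays to different embryos. The p-values therefore describe the spread among the samples of this study alone, pooled within groups over all 27 arrays, and part of that spread may be technical.

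Rb1 and p107 (gene symbol Rbl1) are pocket proteins. They bind E2F transcription factors and hold down genes needed for S phase, and cyclin-dependent kinases release that hold by phosphorylating them. With p130 (Rbl2) they form one family, and p107 and p130 also assemble with the MuvB core into the DREAM complex, which silences cell cycle genes in resting cells. Red cells are made chiefly in the liver at this fetal age, and Rb1 is known for its part in the exit of erythroblasts from the cell cycle and their final maturation.

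Both targeted genes were lower on the DKO arrays. Signals below are linear MAS5 intensities, and differences with their standard errors (SE) are on the scale of log2(signal + 32), tested with limma's moderated test with Benjamini-Hochberg adjustment over 10916 genes at a threshold of 0.05. Rbl1 gave 1571, 1541 and 1746 in the WT arrays and 87.3 and 84.5 in the DKO arrays. Both DKO values were far under every WT value, a 14.0-fold difference (log2 -3.81 ± 0.25 SE, limma adjusted p = 2.34e-09), or 18.6-fold with a pseudocount of 1 and 9.24-fold with 100. Rb1 gave 6144, 6579 and 7105 in WT and 1377 and 1662 in DKO, which was 4.29-fold lower (log2 -2.10 ± 0.22 SE, limma adjusted p = 7.18e-06). The labels of the 2 DKO arrays thus matched both targeted genes, although a residual Rb1 signal remained. A second Rb1 probe set was dim, with means of 17.0 in WT and 43.2 in DKO, and averaging both probe sets took the Rb1 difference to -0.71 (limma adjusted p = 0.623). The sources used here do not place these probe sets relative to the alteration. In the single knockouts Rb1 gave 1507 to 2825 in Rb1KO and 6651 and 6351 in p107KO, and Rbl1 gave 1518 to 3502 in Rb1KO and 117.1 and 108.6 in p107KO, so every array at 0 h matched its label. All 4 Rbl1 probe sets were lower in DKO.

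Autosomal genes past the threshold of the test numbered 20 of 10554, or 0.19%, with 14 higher (0.133%) and 6 lower (0.0569%) in DKO than in WT. The gene with the largest rise was Hspa1b, followed by Hspa1a, Otud1, Fos and Cdkn1a, and the largest falls were in Rbl1, Prr15l, Rb1, Tcp11l2 and Rsad2. Of the 14 that rose, 10 did so by 2-fold or more, as did all 6 that fell. At an unadjusted p under 0.05 there were 430 genes, 4.07% of those tested. The count fell to 10 without WT replicate 1, 9 without DKO replicate 1 and 7 without DKO replicate 2, and it was 44 with quantile normalization, 52 without 4 arrays of other groups that stood apart in earlier results of these data, 141 with only the 2 groups fitted and 375 with array weights. All 20 genes kept their direction in each of those fits.

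**Figure D1:**
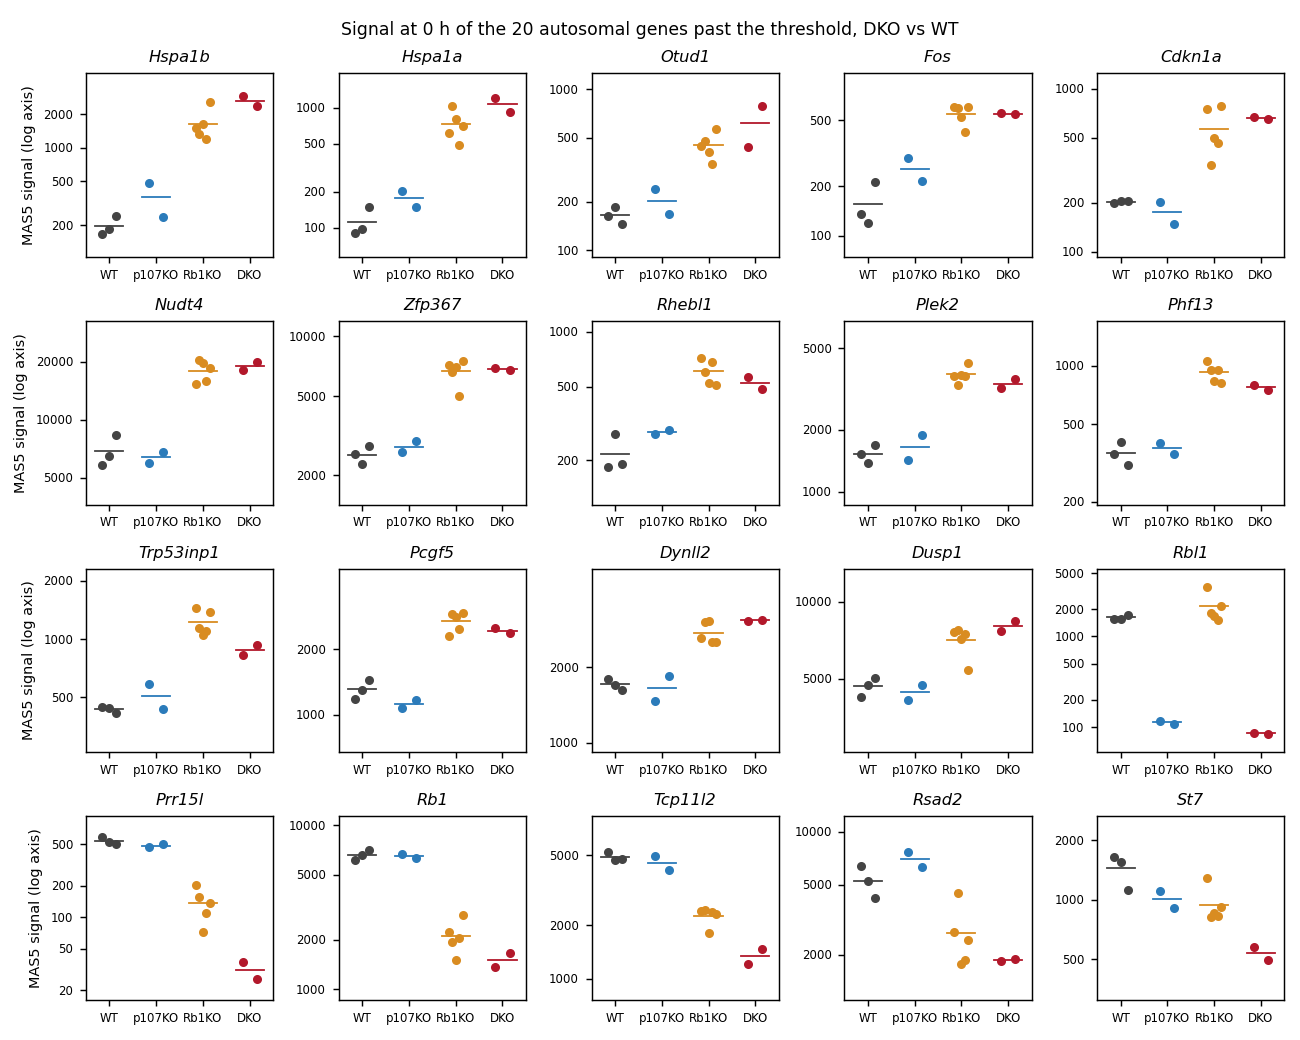
MAS5 signal on a log axis for the 20 autosomal genes past the threshold between DKO and WT, 1 point per array at 0 h, with the group mean as a line. The 2 DKO arrays lie outside the range of the 3 WT arrays in every panel, and p107KO lies near WT in most panels other than Rbl1.

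The arrays differed by sex as well as by genotype. Y-linked signal was present on 2 of 2 DKO arrays and 0 of 3 WT arrays, and on 1 of 5 Rb1KO and 1 of 2 p107KO arrays. Eif2s3y, a Y-linked translation factor gene, gave 922.8 and 956.1 in DKO and 0.70 to 26.8 in WT, while Xist, the RNA that coats the inactive X chromosome, gave 143.8 and 168.6 in DKO and 4806 to 6455 in WT. Genotype and sex therefore cannot be told apart from the 5 arrays alone, and genes are counted on autosomes. With Y-linked signal as a covariate, which the single knockout arrays and the cultured arrays make possible, 9 of the 20 genes stayed past the threshold and all 20 kept their direction. The 11 that lost the call moved by at most 0.11 on the log2 scale. The 9 were Rbl1, Rb1, Hspa1a, Hspa1b, Tcp11l2, Prr15l, Zfp367, Otud1 and Nudt4. Among these 9 the largest moves were in Tcp11l2, from -1.85 to -1.61, and Hspa1a, from 2.93 to 3.16. Median signal on the 5 arrays ran from 87.5 to 107.4, and the correlation across genes was 0.9871 between the 2 DKO arrays, 0.9805 to 0.9835 among the WT arrays and 0.9754 to 0.9792 between DKO and WT, with genes not being independent replicates.

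The labelled tissue matched its defining markers. The erythroid anion exchanger Slc4a1 gave 31462 to 39782 in WT and 35537 to 37415 in DKO, and the hepatocyte product Alb gave 33623 to 41502 and 38329 to 41213. The summed signal of 10 erythroblast markers overlapped between the groups, at 136061 to 160728 in WT and 142872 to 154318 in DKO. The alpha globin probe set that carries the single symbol Hba-a1 was dim, at 10.9 to 68.9 in these arrays. Probe sets with several symbols were not used.

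Promoters of 3 genes that rose are shown, each from a group described below: Zfp367 from the S phase genes, and Hspa1b and Hspa1a from the heat shock chaperones. Only promoters that hold the motif looked for were printed, so the matches were fixed by that choice. They are RefSeq sequences of GRCm38.p6, running from 250 bases before to 50 bases after the annotated start on the minus strand. Zfp367 lies at chr13:64153150-64153449, Hspa1b at chr17:34959189-34959488 and Hspa1a at chr17:34972107-34972406. Capitals mark E2F motif letters in Zfp367 (TTTCCCGC, TTTGGCGC, TTTCGCGC or TTTGCCGC, on either strand, with no overlap between the 2 matches) and the heat shock element letters GAANNTTC, which read the same on both strands, in the other two.
Zfp367: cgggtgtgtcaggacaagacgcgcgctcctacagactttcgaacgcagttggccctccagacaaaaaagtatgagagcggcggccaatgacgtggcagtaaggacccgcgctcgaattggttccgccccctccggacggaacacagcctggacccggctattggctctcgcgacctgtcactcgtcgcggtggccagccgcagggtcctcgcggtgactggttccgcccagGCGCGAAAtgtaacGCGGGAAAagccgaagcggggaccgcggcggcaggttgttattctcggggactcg
Hspa1b: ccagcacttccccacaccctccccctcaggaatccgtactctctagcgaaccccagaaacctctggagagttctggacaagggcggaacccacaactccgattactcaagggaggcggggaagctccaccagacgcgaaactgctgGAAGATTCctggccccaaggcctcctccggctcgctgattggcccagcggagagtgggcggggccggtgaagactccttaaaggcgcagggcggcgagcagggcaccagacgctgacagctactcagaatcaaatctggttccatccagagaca
Hspa1a: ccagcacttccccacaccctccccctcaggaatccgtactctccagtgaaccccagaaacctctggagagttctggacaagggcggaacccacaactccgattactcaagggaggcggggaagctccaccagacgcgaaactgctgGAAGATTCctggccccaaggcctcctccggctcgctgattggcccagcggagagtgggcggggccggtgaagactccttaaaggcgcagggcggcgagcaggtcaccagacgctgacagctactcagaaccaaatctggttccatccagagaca
The Zfp367 promoter holds 2 E2F matches, GCGCGAAA starting 19 bases and GCGGGAAA starting 5 bases before the start site. Of 32851 promoters in the table, 744 (2.26%) hold at least 1 such motif and 2582 (7.86%) hold GAANNTTC. Counted by gene, 20 of 49 G1/S and replication genes with a promoter there (40.8%) hold an E2F motif. Among genes that rose, 1 of 11 with a promoter (9.09%) does, against 2.6% of all genes. The 2 heat shock promoters differ at 4 of 300 bases and each holds GAAGATTC starting 104 bases before the start. A match of letters describes the sequence and does not show that a factor binds there. The heat shock promoters were added after the expression values were seen.

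The third family member, Rbl2, which can stand in for p107 in DREAM, gave 464.0, 484.7 and 379.3 in WT and 360.9 and 487.3 in DKO. These ranges overlapped, and the log2 difference was -0.06 (95% interval -0.70 to 0.57, limma adjusted p = 1). Of the 9 pocket protein and MuvB genes tested, Rb1 and Rbl1 fell and none rose. Both DKO arrays lay above all WT arrays for 4 (44.4%) and below for 2 (22.2%), against 15.3% and 16.2% of all genes. The 2 below were the targeted genes Rb1 and Rbl1, so the genotype itself set that share. The MuvB genes Lin9 (log2 0.55 ± 0.24 SE) and Lin54 (0.44 ± 0.25 SE) and the histone-binding subunit Rbbp4 (0.37 ± 0.21 SE) had both DKO arrays above all WT arrays without passing the test (limma adjusted p = 1 for each). Lin52 (-0.17 ± 0.30 SE), Lin37 (0.04 ± 0.24 SE) and Mybl2, which joins MuvB to activate mitotic genes (0.10 ± 0.27 SE), were nearer 0, all with a limma adjusted p = 1. Mybl2 also had both DKO arrays above all WT arrays.

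None of the 10 E2F and DP genes tested passed. The 2 atypical repressors E2f8 and E2f7, themselves E2F target genes, had log2 differences of 0.51 ± 0.19 SE (limma adjusted p = 0.733) and 0.39 ± 0.18 SE (limma adjusted p = 1). E2f8 signals were 6118, 5472 and 5640 in WT and 8276 and 8146 in DKO. The activator E2f1 gave 1163, 1257 and 1422 in WT and 1813 and 1650 in DKO (log2 0.43 ± 0.27 SE, limma adjusted p = 1), with no overlap between the groups. The remaining members had log2 differences of 0.30 ± 0.14 SE for E2f6, 0.18 ± 0.15 SE for Tfdp1, -0.06 ± 0.19 SE for E2f2, -0.19 ± 0.21 SE for E2f3, -0.31 ± 0.41 SE for E2f4, -0.39 ± 0.54 SE for E2f5 and -0.52 ± 0.25 SE for Tfdp2, the DP partner expressed in erythroid cells, each with a limma adjusted p = 1. Activators, repressors and DP partners were thus mixed in sign.

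Among S phase genes Zfp367, a zinc finger protein gene, was the member that rose. It gave 2554, 2273 and 2796 in WT and 6908 and 6808 in DKO, with the DKO pair well clear of WT (2.69-fold, log2 1.43 ± 0.19 SE, limma adjusted p = 1.80e-04). Its other, dimmer probe set, with means of 229.0 in WT and 361.6 in DKO, differed by 0.61 on the log2 scale. Ccne2, a cyclin that activates CDK2 at the G1/S transition, gave 1984, 1839 and 2153 in WT and 4255 and 5182 in DKO, just outside the threshold (log2 1.23 ± 0.27 SE, limma adjusted p = 0.0574). The histone mRNA binding protein gene Slbp (log2 0.36 ± 0.14 SE, limma adjusted p = 0.786) and the single-strand DNA binding subunit gene Rpa2 (0.50 ± 0.20 SE, limma adjusted p = 0.862) came next.

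Counts over the cell cycle lists were set against the same counts over all genes. Of the 60 G1/S and replication genes tested, 1 rose and 0 fell, and 37 (61.7%) had both DKO arrays above all WT arrays, where 15.3% of all autosomal genes did. Only 1 (1.67%) had both below, against 16.2% of all genes. The median log2 difference was 0.20 over the list and -0.01 over all genes, so the members' shifts were small. Of 59 G2/M and mitosis genes tested, 0 passed, 26 lay above and 3 below all WT arrays, and the median was 0.15. Cdca5, which protects sister chromatid cohesion (log2 0.44 ± 0.15 SE, limma adjusted p = 0.666), the mitotic kinase gene Cdk1 (0.36 ± 0.14 SE, limma adjusted p = 0.786) and the spindle-associated gene Ckap2 (0.33 ± 0.15 SE, limma adjusted p = 1) had the smallest p-values there. DNA repair genes had 12 of 26 above and 2 below, and histone and chromatin genes 8 of 20 above and 0 below, with none past the threshold in either list.

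**Figure D2:**
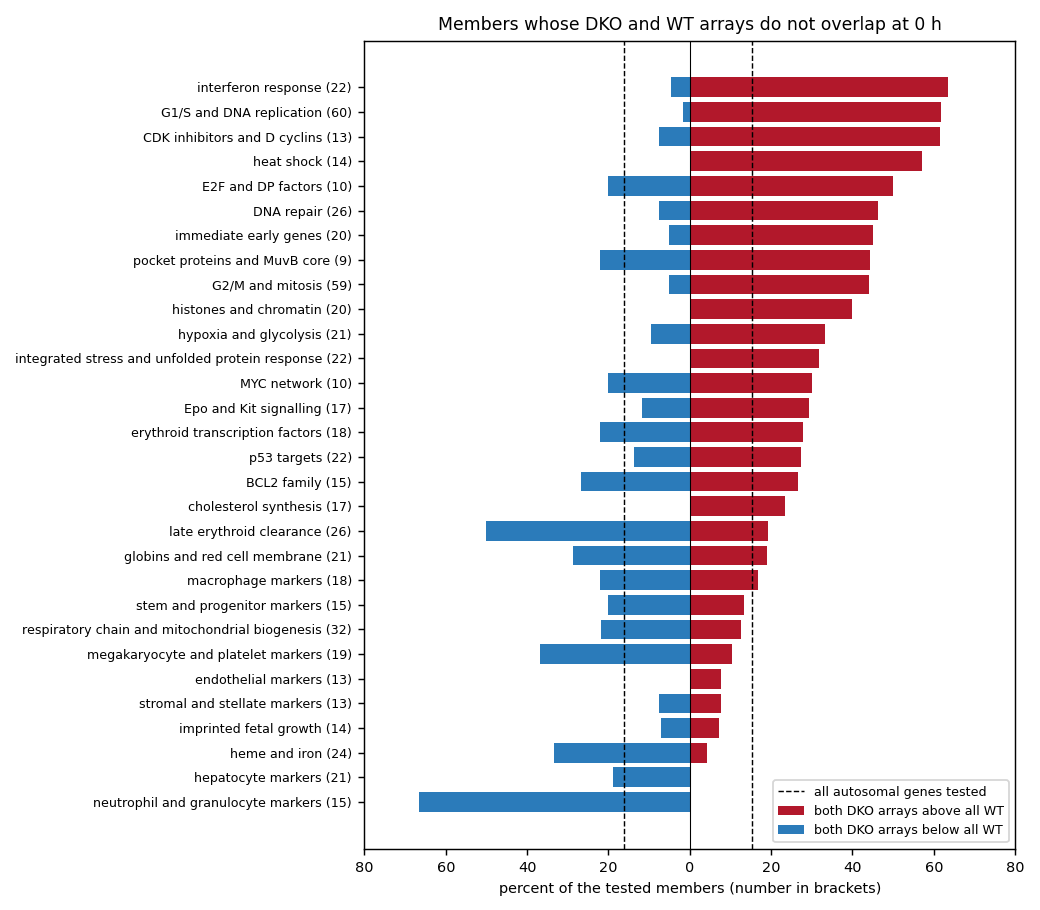
Share of each list's tested members, in percent, with both DKO arrays above all 3 WT arrays (red, to the right) or below them (blue, to the left), with the shares over all 10554 autosomal genes as dashed lines. Interferon, S phase, CDK inhibitor and heat shock genes reach furthest to the right, and neutrophil markers and late erythroid genes furthest to the left; lists with fewer than 9 tested members are not drawn.

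Among negative regulators of the cell cycle, 1 gene rose. Cdkn1a, which encodes the CDK inhibitor p21, rose from 198.3, 204.6 and 206.5 in WT to 672.8 and 650.3 in DKO (2.95-fold, log2 1.56 ± 0.26 SE, limma adjusted p = 0.00581). Within each group the arrays differed little, and the groups did not overlap. Cdkn1a lost the call with Y-linked signal as a covariate (log2 1.53, limma adjusted p = 0.0751) and without either DKO array. Of the 13 CDK inhibitor and D cyclin genes tested, 1 rose and 0 fell, while 8 (61.5%) lay above and 1 (7.69%) below all WT arrays, against 15.3% and 16.2% of all genes. The list median was 0.50, and 0.29 with Y-linked signal as a covariate. The inhibitor genes Cdkn2c (log2 0.60 ± 0.18 SE, limma adjusted p = 0.369) and Cdkn2d (0.50 ± 0.17 SE, limma adjusted p = 0.63) and the cyclin G gene Ccng1 (0.69 ± 0.22 SE, limma adjusted p = 0.501) did not pass.

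Cdkn1a and Ccng1 are also p53 target genes. Of 22 p53 targets tested, 2 rose: Cdkn1a and the stress-induced gene Trp53inp1, which gave 444.8, 440.2 and 413.8 in WT and 825.0 and 933.6 in DKO (1.96-fold, log2 0.97 ± 0.19 SE, limma adjusted p = 0.0203). The growth arrest gene Gadd45a pointed the other way, at 5421, 5737 and 4904 in WT and 3026 and 3104 in DKO, without passing (log2 -0.80 ± 0.19 SE, limma adjusted p = 0.0942). Over the list 6 (27.3%) lay above and 3 (13.6%) below all WT arrays, against 15.3% and 16.2% of all genes, and the median was 0.09. Rises in the list were thus few, and the members did not share a direction. None of 15 BCL2 family genes passed, with 4 (26.7%) above and 4 (26.7%) below all WT arrays, beside the same 15.3% and 16.2%.

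The inducible heat shock chaperones had the largest rises of all genes past the threshold. Hspa1b, an inducible HSP70 gene, gave 165.0, 183.4 and 244.0 in WT and 2926 and 2369 in DKO. The lower DKO array was several times the highest WT array, and the difference was 11.7-fold (log2 3.55 ± 0.32 SE, limma adjusted p = 7.41e-07). Its neighbour and near copy Hspa1a gave 91.4, 97.8 and 148.6 in WT and 1206 and 924.8 in DKO (7.64-fold, log2 2.93 ± 0.32 SE, limma adjusted p = 1.32e-05). The 2 genes are so alike that their probe sets may share transcripts, so they may not be separate measurements. The other 2 probe sets of Hspa1b gave log2 differences of 3.301 and 2.997. Of 14 heat shock genes tested, 2 rose, 0 fell, 8 (57.1%) lay above all WT arrays and 0 below, against 15.3% and 16.2% of all genes. The HSP70 cofactor gene Dnajb1 (log2 0.85 ± 0.22 SE, limma adjusted p = 0.189) and the inducible HSP90 gene Hsp90aa1 (0.43 ± 0.22 SE, limma adjusted p = 1) were higher on both DKO arrays but did not pass.

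Immediate early genes, which respond within minutes to growth signals and stress, also had members that rose. Fos, a subunit of the AP-1 factor, gave 136.2, 118.9 and 212.6 in WT and 551.6 and 547.3 in DKO (3.16-fold, log2 1.66 ± 0.30 SE, limma adjusted p = 0.00951). Dusp1, a phosphatase that switches off MAP kinases, gave 4253, 4733 and 5060 in WT and 7693 and 8411 in DKO (1.72-fold, log2 0.78 ± 0.16 SE, limma adjusted p = 0.0496). It sat at the threshold and passed in 9 of 17 alternative settings. Of 20 such genes tested, 2 rose and 0 fell, and 9 (45.0%) lay above and 1 (5.0%) below all WT arrays, against 15.3% and 16.2% of all genes. The AP-1 subunit gene Jund (log2 0.97 ± 0.34 SE, limma adjusted p = 0.66) and Ier2 (0.65 ± 0.30 SE, limma adjusted p = 1) did not pass. The time from dissection to lysis is unknown here, and its part in the heat shock and immediate early results was not tested.

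The other genes that rose belong to no list used here, apart from the ones named above. Otud1, a deubiquitinase gene, gave 163.2, 185.1 and 144.6 in WT and 439.4 and 786.6 in DKO, with the 2 DKO arrays further apart than for any other gene past the threshold (log2 1.67 ± 0.23 SE, limma adjusted p = 4.22e-04). Nudt4, which encodes a hydrolase of diphosphoinositol polyphosphates, gave 5808, 6506 and 8377 in WT and 18135 and 19894 in DKO (log2 1.47 ± 0.24 SE, limma adjusted p = 0.00318). Both groups were bright and did not overlap on that probe set, while the other Nudt4 probe set, with means of 10305 in WT and 14313 in DKO, differed by 0.47. Rhebl1, a small GTPase gene related to Rheb, gave 182.9, 277.1 and 190.3 in WT and 564.7 and 488.2 in DKO (log2 1.18 ± 0.21 SE, limma adjusted p = 0.00951).

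Further genes rose by about 1 on the log2 scale. Plek2, a pleckstrin family gene of the actin cytoskeleton, gave 1522, 1380 and 1687 in WT and 3201 and 3524 in DKO (log2 1.12 ± 0.21 SE, limma adjusted p = 0.019). Phf13, which encodes a reader of methylated histone H3, gave 352.9, 407.3 and 309.4 in WT and 800.3 and 752.8 in DKO (log2 1.06 ± 0.19 SE, limma adjusted p = 0.0121). Both genes were well separated between the groups. Pcgf5, a Polycomb RING finger gene, gave 1179, 1297 and 1444 in WT and 2501 and 2368 in DKO (log2 0.89 ± 0.16 SE, limma adjusted p = 0.00951). Its other 2 probe sets were lower in DKO, by log2 -0.15 and -0.58, and averaging over the probe sets left 0.05 (limma adjusted p = 1). The dynein light chain gene Dynll2, named after its values were seen, rose by 0.84 ± 0.16 SE (limma adjusted p = 0.019) on the probe set used and differed by 0.05 on its other one.

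Falls other than the targeted genes were in 4 genes. Prr15l gave 581.7, 521.4 and 508.4 in WT and 37.1 and 25.8 in DKO (log2 -3.17 ± 0.35 SE, limma adjusted p = 1.32e-05). Its DKO signals were about as low as the pseudocount, which therefore sets the fold: 8.99-fold with 32, 16.8-fold with 1 and 4.85-fold with 100. Tcp11l2 gave 5195, 4713 and 4771 in WT and 1210 and 1471 in DKO (3.60-fold lower, log2 -1.85 ± 0.17 SE, limma adjusted p = 1.16e-06). For both genes every DKO array lay far under every WT array. St7 gave 1655, 1556 and 1127 in WT and 580.0 and 498.6 in DKO (2.56-fold lower, log2 -1.36 ± 0.23 SE, limma adjusted p = 0.00705). The fourth, Rsad2, is described with the interferon genes.

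Tcp11l2 stood in the list used here for late red cell maturation, when organelles are cleared. That list was chosen with earlier results of these data known. Of its 26 tested members 1 fell and 0 rose, and 13 of the 26 lay below all WT arrays, against 16.2% of all genes, with 5 above and a median of -0.19. Bpgm, the enzyme that makes the haemoglobin ligand 2,3-bisphosphoglycerate in red cells, gave 10499, 10427 and 9637 in WT and 5637 and 4959 in DKO (log2 -0.94 ± 0.23 SE, limma adjusted p = 0.125). The ubiquitin-conjugating enzyme gene Ube2o, which acts in reticulocytes, had a log2 difference of -0.98 ± 0.24 SE (limma adjusted p = 0.129). Mxi1, a MYC antagonist gene, ran the other way at 0.73 ± 0.16 SE (limma adjusted p = 0.071). None of these 3 genes passed the test.

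Other erythroid lists showed no gene past the threshold. Globin and membrane genes had 4 of 21 above and 6 below (28.6%) all WT arrays, heme and iron genes 1 of 24 above (4.17%) and 8 below (33.3%), and erythroid transcription factors 5 of 18 above (27.8%) and 4 below (22.2%). Over all genes the shares were 15.3% and 16.2%. After quantile normalization between arrays, a count made after seeing the data, the heme and iron genes had 2 above and 12 below. The fatty acid transporter gene Cd36 (log2 -0.96 ± 0.37 SE, limma adjusted p = 0.786) and the water channel gene Aqp1 (-0.59 ± 0.31 SE, limma adjusted p = 1) were lower on both DKO arrays. The erythropoietin receptor gene Epor gave 5554, 7167 and 6100 in WT and 3223 and 3425 in DKO (-0.90 ± 0.25 SE, limma adjusted p = 0.273). Socs3, an inhibitor of cytokine signalling, gave 507.7, 596.4 and 574.6 in WT and 1110 and 1700 in DKO (1.25 ± 0.30 SE, limma adjusted p = 0.119). These receptor and inhibitor values stood apart between the groups without passing. Of the 17 erythropoietin and Kit signalling genes tested, 5 (29.4%) lay above and 2 (11.8%) below all WT arrays, with a median of 0.02. In Rb1KO the log2 differences from the same WT arrays were -0.97 for Epor and 1.02 for Socs3.

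Interferon response genes had the highest median of all lists, with 1 member that passed going the other way. Of 22 tested, 14 (63.6%) lay above all WT arrays and 1 (4.55%) below, against 15.3% and 16.2% of all genes, and the median log2 difference was 0.60. Irf7, a transcription factor gene of the response, gave 219.8, 197.2 and 131.1 in WT and 690.2 and 392.5 in DKO (log2 1.39 ± 0.36 SE, limma adjusted p = 0.178). Irf9, which encodes the DNA-binding subunit of the ISGF3 complex, gave 581.9, 683.9 and 578.2 in WT and 1165 and 1147 in DKO (0.88 ± 0.20 SE, limma adjusted p = 0.0672). The oligoadenylate synthetase gene Oas1a gave 342.6, 278.9 and 342.3 in WT and 841.7 and 511.6 in DKO (0.97 ± 0.29 SE, limma adjusted p = 0.382). DKO replicate 1 was the higher DKO array for Irf7 and Oas1a, and the lower of the 2 was still above all WT arrays. No interferon gene rose past the threshold.

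Rsad2, which encodes the antiviral enzyme viperin and is itself a member of that list, fell. It gave 6427, 5224 and 4199 in WT and 1848 and 1878 in DKO (2.76-fold lower, log2 -1.47 ± 0.29 SE, limma adjusted p = 0.0228). Its other 2 probe sets gave log2 differences of -1.50 and -1.43, so all 3 lay on the same side. Rsad2 did not pass with Y-linked signal as a covariate (log2 -1.38, limma adjusted p = 0.271). Interferon genes also stood above WT in p107KO, with a list median of 0.34, and nearer to WT in Rb1KO, at 0.11; both medians use the same WT arrays as the 0.60 of DKO.

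**Figure D3:**
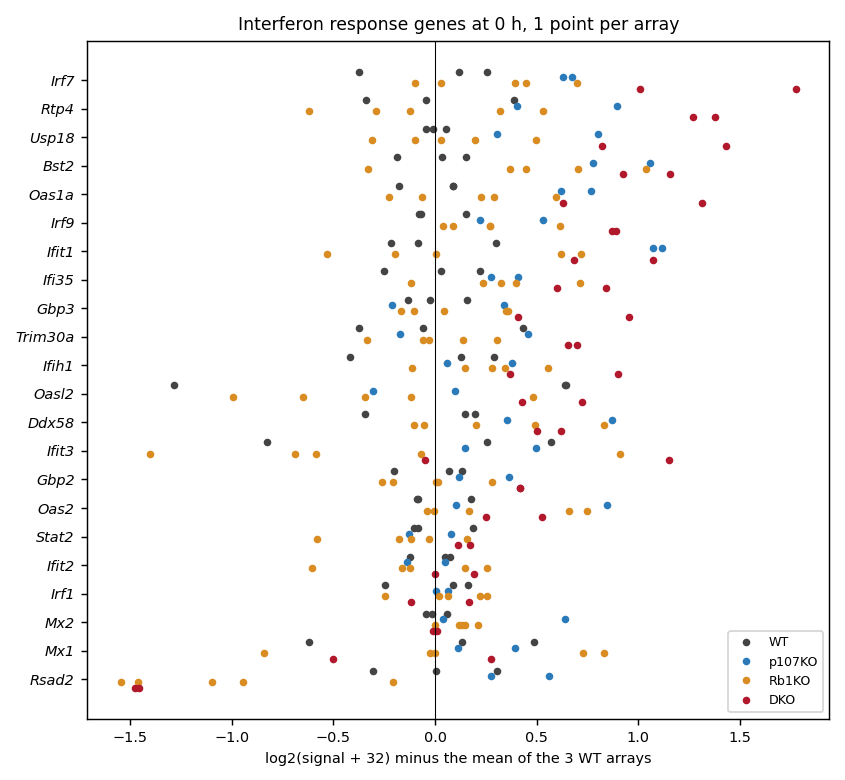
Each of the 22 interferon response genes tested, as log2(signal + 32) minus the mean of the 3 WT arrays, with 1 point per array at 0 h. DKO points (red) lie right of all WT points for 14 genes and left of them for Rsad2.

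Among markers of other blood cells, those of neutrophils were most often below all WT arrays. Of 15 neutrophil and granulocyte markers tested, 0 passed, 10 (66.7%) lay below all WT arrays and 0 above, against 16.2% and 15.3% of all genes, and the median was -0.41. Their summed signal over all 15 matched markers was 97176 to 128568 in WT and 87722 to 90269 in DKO. The granule protein gene Fcnb had the smallest p-value (log2 -1.04 ± 0.32 SE, limma adjusted p = 0.416), with Elane, neutrophil elastase, at -0.75 ± 0.38 SE (limma adjusted p = 1). Fewer cells of a type and less RNA per cell cannot be told apart in bulk samples. Megakaryocyte and platelet markers had 7 of 19 below (36.8%) and 2 above (10.5%), beside the same shares of all genes, with sums of 44804 to 57566 in WT and 37316 to 39346 in DKO. Their median was -0.16, and 0.05 with Y-linked signal as a covariate. The platelet chemokine gene Pf4 stood at -0.41 ± 0.26 SE (limma adjusted p = 1).

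Sums for macrophage markers were 35289 to 39622 in WT and 33231 to 34177 in DKO, with 4 of 18 tested members below all WT arrays (22.2%) and 3 above (16.7%), close to the 16.2% and 15.3% of all genes. Summed hepatocyte markers (288927 to 344791 in WT, 288224 to 317587 in DKO), endothelial markers (9614 to 11192 and 9977 to 10200) and stromal markers (21411 to 29094 and 24677 to 26503) overlapped between the groups. The part of these cell types in the results above was not tested. Of the 11 T and NK cell markers, 9 stayed under a signal of 100 on all 5 arrays.

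The double knockout was then set beside each single knockout. DKO, Rb1KO and p107KO are all measured against the same 3 WT arrays, so the 3 sets of differences are not independent and are given side by side only. Of the 18 genes other than Rb1 and Rbl1 that passed in DKO, 18 had the same sign in Rb1KO and 17 passed there too. The difference was larger in DKO for 13 and smaller for 5. For Hspa1b the log2 differences from WT were 3.55 in DKO, 2.83 in Rb1KO and 0.70 in p107KO, and for Zfp367 they were 1.43, 1.37 and 0.14. For Tcp11l2 they were -1.85, -1.10 and -0.11, and for Prr15l they were -3.17, -1.81 and -0.13. Trp53inp1 had a smaller value in DKO (0.97) than in Rb1KO (1.42), with 0.21 in p107KO. Past the threshold against WT were 66 genes (0.625%) in Rb1KO, 58 higher (0.55%) and 8 lower (0.0758%), and 1 (0.00948%), Rbl1, in p107KO. Rb1KO has 5 arrays and DKO and p107KO have 2 each, so standard errors differ (for Hspa1b, 0.25 in Rb1KO and 0.32 in DKO). These counts therefore do not rank the genotypes by size of effect.

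**Figure D4:**
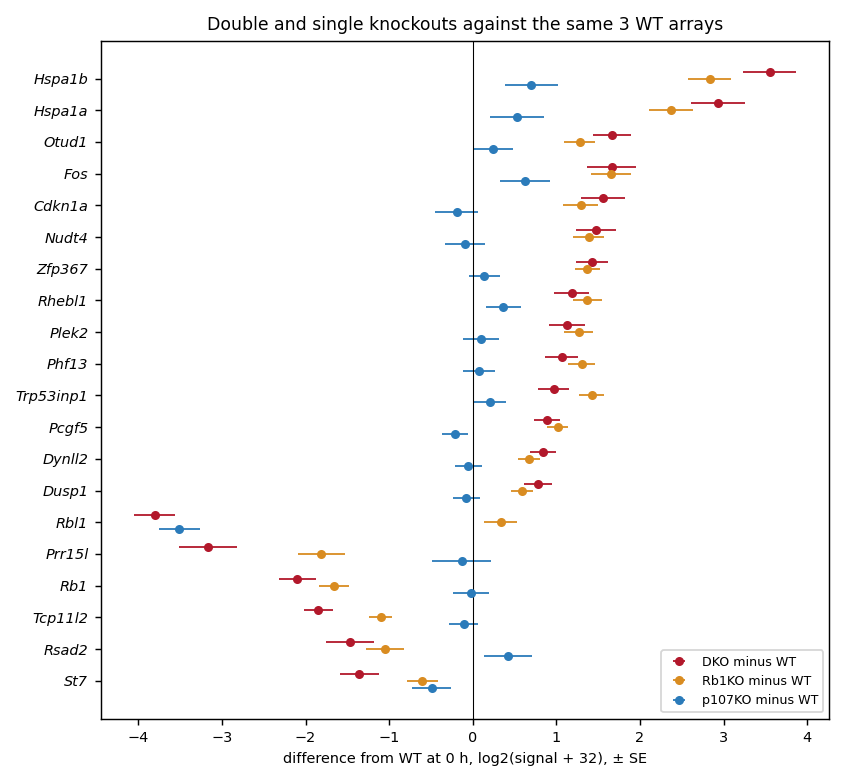
Difference from WT at 0 h on the log2(signal + 32) scale, with its standard error, for the 20 genes past the threshold in DKO, in DKO (red), Rb1KO (orange) and p107KO (blue). All 3 are measured against the same 3 WT arrays; apart from Rbl1, the widest gaps between DKO and Rb1KO are those of Prr15l, Tcp11l2, St7 and Hspa1b.

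Direct comparison of DKO with Rb1KO asks what p107 loss adds. Only Rbl1 passed (1 of 10554, 0.00948%; log2 -4.14 ± 0.22 SE, limma adjusted p = 6.80e-11), and 387 genes had an unadjusted p under 0.05. The count was 28 with array weights, and 2 without those 4 arrays or without DKO replicate 1. Of the 18 genes other than Rb1 and Rbl1 that passed in DKO against WT, 5 had both DKO arrays outside the range of the 5 Rb1KO arrays, where 11.7% of all genes did (5.99% higher, 5.75% lower); they were chosen with the same DKO arrays. Tcp11l2 gave 1805 to 2454 in Rb1KO, with a median of 2380, against 1210 and 1471 in DKO (log2 -0.75, 95% interval -1.07 to -0.42, limma adjusted p = 0.375). Its lowest Rb1KO value came from the Rb1KO array with Y-linked signal. Prr15l gave 71.9 to 204.6 in Rb1KO, with a median of 135.7, against 37.1 and 25.8 in DKO (log2 -1.36, 95% interval -2.02 to -0.69, limma adjusted p = 0.655). The same Y-positive Rb1KO array was again the lowest.

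St7 was likewise lower in DKO than on every Rb1KO array (log2 -0.75, 95% interval -1.20 to -0.31, limma adjusted p = 1), whereas Phf13 (-0.24, interval -0.61 to 0.13) and Trp53inp1 (-0.45, interval -0.81 to -0.10) lay nearer to WT than all Rb1KO arrays did (limma adjusted p = 1 for both). For Zfp367 the difference was 0.05 with an interval of -0.30 to 0.41, and for Cdkn1a it was 0.27 with an interval of -0.23 to 0.77. Among genes chosen by their p in this comparison, the interferon-induced gene Ifi27 gave 161.5 to 495.2 in Rb1KO and 947.3 and 759.8 in DKO (log2 1.43, interval 0.81 to 2.04, limma adjusted p = 0.375). It stood at 695.5 and 636.9 in p107KO and 193.3 to 371.7 in WT, so the arrays lacking p107 were the higher ones. Foxo3, a forkhead factor gene with a role in erythroid maturation, gave 7412 to 11666 in Rb1KO and 5417 and 4913 in DKO (log2 -0.89, interval -1.35 to -0.43, limma adjusted p = 0.688).

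Against p107KO, which asks what Rb1 loss adds, 13 genes (0.123%) passed, 9 higher (0.0853%) and 4 lower (0.0379%) in DKO. This comparison shares the DKO arrays with the one against WT. The smallest adjusted p-values were for Tcp11l2 (log2 -1.74 ± 0.19 SE, limma adjusted p = 5.70e-05), Rb1 (-2.08 ± 0.24 SE, limma adjusted p = 8.6e-05), Hspa1b (2.85 ± 0.35 SE, limma adjusted p = 1.34e-04) and Prr15l (-3.04 ± 0.39 SE, limma adjusted p = 1.93e-04). Pcgf5, Zfp367, Nudt4 and Cdkn1a were higher here too, by 1.10, 1.29, 1.57 and 1.75 on the log2 scale (limma adjusted p = 0.00334, 0.00349, 0.00477 and 0.00477). Fos did not pass (log2 1.04, limma adjusted p = 0.626). The count was 5 without DKO replicate 2, 6 without DKO replicate 1 or p107KO replicate 2 and 7 without p107KO replicate 1. It was 20 with only the 2 groups fitted, 21 without those 4 arrays, 23 with quantile normalization and 113 with array weights.

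The interaction term asked whether the double knockout differs from the sum of the single knockouts on the log2 scale. No gene passed in limma, and 165 genes (1.56%) had an unadjusted p under 0.05. The median standard error of the term was 0.34, against 0.25 for DKO minus WT, so the lack of calls does not show additivity. The size of departure that these arrays could detect was not tested. For Hspa1b the term was 0.02 with a 95% interval of -0.87 to 0.91, and for Zfp367 it was -0.08 with an interval of -0.61 to 0.44. Of the 18 genes other than Rb1 and Rbl1, 14 had intervals that hold 0. The other 4 were Tcp11l2 (-0.64, interval -1.12 to -0.15), Prr15l (-1.22, interval -2.21 to -0.24), Trp53inp1 (-0.66, interval -1.19 to -0.14) and Rsad2 (-0.83, interval -1.64 to -0.02), each with a limma adjusted p = 1. All 18 were chosen with arrays that enter the term.

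Named by the smallest p of the interaction itself, Gtf2f2, a subunit gene of the general factor TFIIF, had 0.67 (interval 0.20 to 1.14), and Drap1, a subunit gene of a repressor of TATA-box transcription, had 1.13 (interval 0.32 to 1.94). The chromatin remodeller gene Chd8 (-1.19, interval -1.92 to -0.46) and the nuclear long noncoding RNA Neat1 (-1.11, interval -1.81 to -0.41) pointed the other way (limma adjusted p = 1 for all 4). For Chd8 the DKO arrays, at 978.9 and 983.6, were close to WT, at 974.7 to 1127, and the single knockouts ran from 1096 to 2299 in Rb1KO and were 1823 and 1142 in p107KO. Redrum, an erythroid long noncoding RNA, gave 1375 and 4.60 on the 2 DKO arrays, so its term of -3.50 rested on DKO replicate 2. Without DKO replicate 1 the Redrum term was -6.13, on the 1 DKO array left, with no spread within DKO to measure.

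Cultured cells gave the same comparison on other arrays, with 1 DKO array and 2 WT arrays at 24 h and again at 48 h. Both DKO arrays there had Y-linked signal too, and DKO at 24 h is among the 4 arrays that stood apart. Whether the cultured cells came from the same livers as the 0 h arrays is not given in the labels. Of the 18 genes other than Rb1 and Rbl1, 15 (83.3%) had the sign of 0 h at 24 h and 15 (83.3%) at 48 h, where 58.4% and 57.1% of all autosomal genes did. The 18 were chosen for their differences at 0 h, so the shares over all genes are not matched to them for size. With 1 DKO array a time, the differences at 24 h and 48 h are values without a test here. Hspa1b stood at 3.55, 5.29 and 3.30 at 0, 24 and 48 h, Hspa1a at 2.93, 3.95 and 3.45, and Zfp367 at 1.43, 2.10 and 3.86. Tcp11l2 stood at -1.85, -3.18 and -2.04 and St7 at -1.36, -1.20 and -1.36.

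Genes with the other sign at 24 h were Prr15l (0.29), Fos (-0.16) and Rsad2 (0.08), and at 48 h Nudt4 (-0.06), Cdkn1a (-0.60) and Trp53inp1 (-0.43). Cdkn1a was dim in fresh cells and bright in cultured ones, at 25666 and 28499 in WT and 17783 in DKO at 48 h. For Rb1 itself the differences were -2.10, -1.03 and -0.04 over the 3 times, so its probe set no longer separated the genotypes at 48 h, while Rbl1 stood at -3.81, -3.47 and -2.49. List medians of DKO minus WT also moved: 0.20, 0.36 and 1.09 for G1/S genes, 0.60, 1.01 and 0.14 for interferon genes, and -0.19, -0.54 and -0.74 for late erythroid genes.

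**Figure D5:**
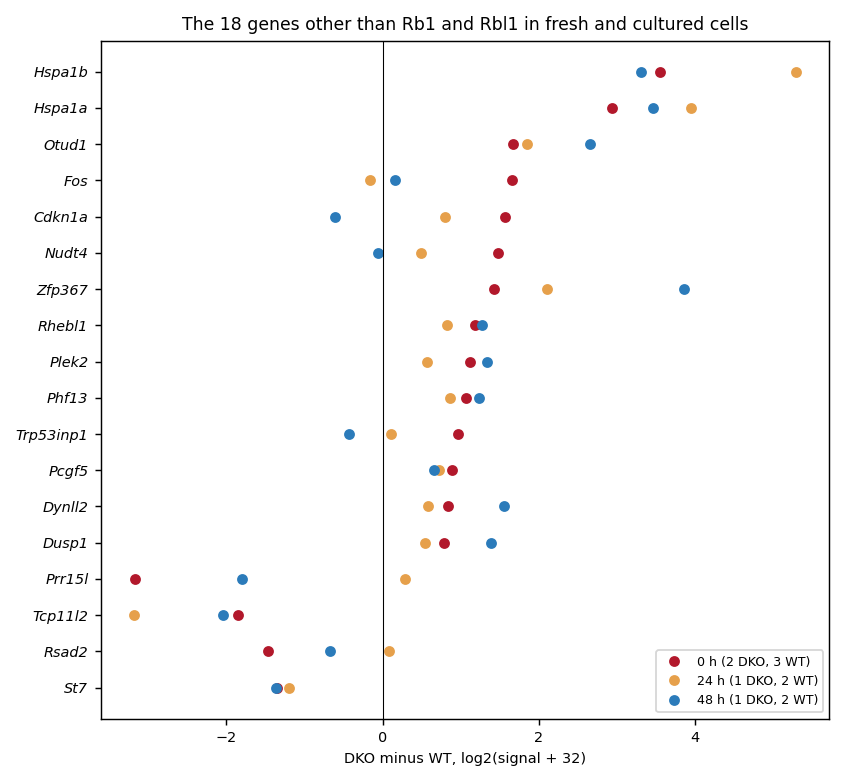
DKO minus WT on the log2(signal + 32) scale in fresh cells (0 h, red) and after 24 h (orange) and 48 h (blue) of culture, for the 18 genes other than Rb1 and Rbl1 past the threshold at 0 h. The cultured points rest on 1 DKO and 2 WT arrays each; 15 of 18 genes have the sign of 0 h at each time.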

How the data were processed

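The authors deposited linear signal intensities from the MAS5 algorithm (GCOS 1.4, per the submitters' processing notes) for 45037 probe sets on 27 arrays in 12 groups. The mean signal without the extreme probe sets lay between 496.9 and 497.7 on the 5 arrays compared, so overall brightness had been scaled. Arrays have no read depth, and their number limits the precision. Probe sets with 1 symbol (34945) were kept, 932 with several and 9160 with none were left out, and 34741 of the kept probe sets were matched by Entrez identifier to the symbols of GRCm38.p6. The brightest probe set stood for each of 18193 genes, the dimmest 40% were dropped, and 10916 genes (10554 autosomal) were tested as log2(signal + 32), which understates the fold of dim genes.

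All 27 arrays entered a single limma fit (version 3.58.1, R 4.3.3), with 1 mean per group, equal weights and a variance prior following brightness (15 residual and 7.17 prior degrees of freedom), two-sided, with Benjamini-Hochberg adjustment over the 10916 genes and a threshold of 0.05. The code was tested on simulated data. Arrays of DKO and WT do not overlap for a gene when both DKO arrays lie above, or both below, all 3 WT arrays. Plots used Python 3.11.15 and matplotlib 3.10.9.

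The members, gene lists and tests were chosen with earlier results of these data known. The text names the targeted genes, Rbl2 and sex-linked genes, up to 12 largest rises and falls past the threshold, up to 4 members per list with the smallest p, all pocket protein and E2F genes, and the genes with the smallest p in the other 3 comparisons. Promoters follow the E2F motif rule for S phase genes that rose, which 1 gene met. Alternatives covered the pseudocount (1 and 100), the filter, quantile normalization, probe set averaging, array weights, the samples fitted, a replicate block, Y-linked signal and leaving out arrays. Same-numbered DKO and WT arrays did not deviate together (r of 0.001 and -0.022), and the main fit used no pairing. With 2 DKO arrays the deviations from their mean mirror each other, so this check cannot exclude a shared litter or batch.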

Additional observations from a re-analysis of the deposited data

Results flagged for a closer look

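Among the 5 Rb1KO arrays at 0 h, 1 value lay far from the other 4 for 3 of the 20 genes past the threshold. Tcp11l2 was 1805.1 on replicate 3, which carries Y-linked signal. St7 was 1291.5 on replicate 1, and Dusp1 was 5403.9 on replicate 5, one of the arrays that stood apart in earlier results. Chance flags about 1 in 20 such groups, and the 20 genes share the same 5 arrays, so these flags are not independent.

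At 48 h of culture, Cdkn1a and Trp53inp1 were lower on the DKO array than on both WT arrays, with log2 differences of -0.604 and -0.432, whereas both DKO arrays were above all WT arrays at 0 h. The change with time rests on 1 DKO array at 48 h and was not tested.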

How the results depend on the processing

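All 20 genes past the threshold between DKO and WT kept their direction in every one of 17 settings in which they were tested. Of these genes, 6 passed in every such setting (Rbl1, Hspa1a, Hspa1b, Tcp11l2, Zfp367 and, in the 16 that tested it, Prr15l), and the other 14 passed in 9 to 16. The count of 20 (14 higher, 6 lower) became 44 with quantile normalization (30 and 14), 375 with array weights (221 and 154), 141 with only the groups compared (80 and 61), 9 with Y-linked signal as a covariate (5 and 4) and 52 without 4 arrays that stand apart; leaving out 1 array gave 7 to 15. A replicate block gave 28, with all 20 genes among them. For DKO against Rb1KO the count of 1 became 28 with array weights and 2 with a replicate block or without the 4 arrays (Serinc3, named after its values were seen, was added), and 1 to 2 on leaving out an array. For DKO against p107KO the 13 became 23 with quantile normalization, 113 with array weights, 20 with only the groups compared and 21 without the 4 arrays, and 5 to 7 on leaving out an array. The interaction stayed at 0 except for 1 gene without DKO replicate 1, so leaving out an array gave 0 to 1. The cause of these changes was not tested. Among named genes, the differences whose sign turned had not passed: E2f2 (0.0399) on averaging probe sets, Itgb3 (0.0213), E2f3 (0.0663), Mybl2 (-0.0503) and Rbl2 (0.31) with Y-linked signal as a covariate, and, on leaving out 1 array, Lin37 (range -0.0568 to 0.1341, with -0.0068 without DKO replicate 2) and Rbl2 (range -0.2658 to 0.1366, with 0.0001 without WT replicate 2). Of 34 list medians, 15 changed sign in at least 1 setting, each of them within 0.159 of 0 as reported. The number of arrays, 2 against 3, limits what could be detected. In the simulated data, 50% of 2-fold and 97% of 4-fold changes between DKO and WT were recovered. Those data held 100 changed genes of each size, where the real comparison called 20. More changed genes loosen the adjusted threshold, so these shares do not give the recovery in the real comparison.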

Other observations

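None of 5 further lists (the integrated stress and unfolded protein responses, hypoxia and glycolysis, cholesterol synthesis, the respiratory chain and imprinted fetal growth genes) had a member past the threshold between DKO and WT at 0 h. Of 22 genes of the integrated stress and unfolded protein responses tested, 7 (31.8%) had both DKO arrays above all WT arrays and 0 had both below, against 15.3% and 16.2% of all genes. The pseudokinase gene Trib3, which is induced in that response, had the largest named difference (log2 0.99 ± 0.32 SE, limma adjusted p = 0.555), and the transcription factor gene Ddit3 had 0.45 ± 0.17 SE (limma adjusted p = 0.832). Against the same shares of all genes, hypoxia and glycolysis genes had 7 of 21 above (33.3%) and 2 below (9.52%), cholesterol synthesis genes 4 of 17 above (23.5%) and 0 below, respiratory chain genes 4 of 32 above (12.5%) and 7 below (21.9%), and imprinted fetal growth genes 1 of 14 above and 1 below (7.14% each).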
